A study of Homo sapiens with 14 samples.

Results

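DCC, NEO1, UNC5A, UNC5B, UNC5C, UNC5D, SLIT1, SLIT2, ROBO1 and ROBO2 are 10 genes of the netrin and Slit guidance systems, taken by symbol from 57445 gene rows counted in undifferentiated cells and in day 11 cultures. They were chosen by family name and selected on the measured fall of DCC with CHIR99021 dose, so the DCC levels across doses are given as a description with no test. The other 9 genes were tested in fits across all genes. The tables list them by Ensembl identifier, ENSG00000187323 for DCC, ENSG00000067141 for NEO1, ENSG00000113763 for UNC5A, ENSG00000107731 for UNC5B, ENSG00000182168 for UNC5C, ENSG00000156687 for UNC5D, ENSG00000187122 for SLIT1, ENSG00000145147 for SLIT2, ENSG00000169855 for ROBO1 and ENSG00000185008 for ROBO2. The samples were 14 RNA-seq libraries of total RNA from H9 (WA-09), a human embryonic stem cell line, and from cultures made from it toward midbrain dopamine neurons, with 2 libraries in each of 7 groups. CHIR99021 (CHIR) is an inhibitor of GSK3 that activates WNT signalling.

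From day 4 the 4 day 11 groups received CHIR at 0.7 µM, 3 µM, 5 µM or 7.5 µM, and the day 30 and day 16 groups followed the 7.5 µM protocol. All differentiated groups had started in SHH C25II, LDN, SB431542, a Rock inhibitor and 0.7 µM CHIR, and SHH, LDN and SB431542 were removed at day 7. At day 10 all of them were given BDNF, ascorbic acid, GDNF, TGFβ3, dbcAMP and 3 µM CHIR, so every day 11 group had seen 3 µM CHIR by the end. The later groups were replated at day 11 into medium with DAPT and without CHIR, and the day 30 group again at day 16. The series text gives day 20 where the sample labels give day 16, and day 9 as the end of the dose step where the protocol has the next medium at day 10. Days here are those of the sample labels and their protocol. The undifferentiated group (hPSC) was kept in E8 medium on vitronectin and received none of these agents. All groups come from 1 line, and the labels do not say whether the 2 libraries of a group are separate cultures or technical repeats. In fits without a block for the replicate number, p-values reflect the spread within these pairs of libraries. In fits with the block, the difference that the replicates share across groups is taken out. P-values then reflect the spread that remains.

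Netrins are secreted proteins that attract or repel growing axons. DCC and its relative neogenin (NEO1) are transmembrane netrin receptors that mediate attraction, and the UNC5 receptors mediate repulsion, alone or together with DCC. Slits are secreted proteins, made among other places by the floor plate at the ventral midline, that repel axons carrying ROBO receptors. In the ventral midbrain, netrin, DCC, Slits and ROBO receptors steer the axons of dopamine neurons, and DCC is expressed by these neurons and by neural progenitors.

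The day 11 and hPSC libraries held 20524827 to 44758969 counts in gene rows, and values are counts-per-million (CPM) of gene rows. The summed CPM of 8 pluripotency markers was 1217 to 2066 in day 11 libraries, against 5574 and 5970 in hPSC libraries. These markers did not move as one. With 0.7 µM against hPSC, LIN28A had a log2 fold change of 0.01 (edgeR). The others had −12.7 (TDGF1) to −2.96 (DNMT3B). The summed CPM of 9 neural progenitor markers was 6509 to 10108 in day 11 libraries, against 1076 and 682 in hPSC libraries. With 0.7 µM against hPSC their log2 fold changes were 0.44 (SOX2) to 6.95 (PAX6) by edgeR. With 7.5 µM against hPSC, SOX2 (−0.27), SOX3 (−0.07) and FABP7 (−0.09) were not higher. The others had 1.07 (MSI1) to 6.60 (HES5). All 9 floor plate markers were above 1 CPM in at least 1 library of each day 11 group, and 7 of them were below 1 CPM in both hPSC libraries. Libraries with the same replicate number moved together across the day 11 groups, so the fit with the replicate number as a block is given beside the fit without it wherever it changed a call.

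The promoters of DCC, chosen for its dose pattern, and of UNC5A, SLIT1 and ROBO2, the genes called at 7.5 against 0.7 µM with the block, are shown here, because CHIR acts through WNT signalling and TCF/LEF factors of that pathway are known to bind short motifs. The RefSeq sequences (GRCh38.p14) cover the 250 bases before the annotated start, 5′ to 3′ on the gene's strand, and capitals mark a CTTTGAA or CTTTGAT motif on either strand. ROBO2 has a pair of annotated starts.
DCC (chr18:52339947-52340196, + strand): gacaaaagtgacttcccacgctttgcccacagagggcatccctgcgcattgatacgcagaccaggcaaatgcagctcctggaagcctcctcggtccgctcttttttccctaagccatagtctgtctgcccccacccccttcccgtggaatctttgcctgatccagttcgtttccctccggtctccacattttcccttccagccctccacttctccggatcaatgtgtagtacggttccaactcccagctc
UNC5A (chr5:176810309-176810558, + strand): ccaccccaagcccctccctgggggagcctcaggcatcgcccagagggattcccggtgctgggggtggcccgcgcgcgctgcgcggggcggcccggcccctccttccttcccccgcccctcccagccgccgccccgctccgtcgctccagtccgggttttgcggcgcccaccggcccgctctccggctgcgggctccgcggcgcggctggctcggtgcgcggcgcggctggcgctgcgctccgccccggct
SLIT1 (chr10:97185960-97186209, - strand): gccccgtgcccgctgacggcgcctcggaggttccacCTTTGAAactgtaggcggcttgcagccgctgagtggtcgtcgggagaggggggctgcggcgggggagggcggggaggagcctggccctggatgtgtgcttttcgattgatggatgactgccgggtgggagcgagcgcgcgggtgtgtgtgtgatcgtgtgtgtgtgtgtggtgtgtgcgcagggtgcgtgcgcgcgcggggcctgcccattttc
ROBO2 start 1 (chr3:76310630-76310879, + strand): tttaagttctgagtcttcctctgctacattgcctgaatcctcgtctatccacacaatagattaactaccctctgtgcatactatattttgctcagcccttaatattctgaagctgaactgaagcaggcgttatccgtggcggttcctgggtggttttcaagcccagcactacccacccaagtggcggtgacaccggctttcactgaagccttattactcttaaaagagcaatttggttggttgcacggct
ROBO2 start 2 (chr3:77039849-77040098, + strand): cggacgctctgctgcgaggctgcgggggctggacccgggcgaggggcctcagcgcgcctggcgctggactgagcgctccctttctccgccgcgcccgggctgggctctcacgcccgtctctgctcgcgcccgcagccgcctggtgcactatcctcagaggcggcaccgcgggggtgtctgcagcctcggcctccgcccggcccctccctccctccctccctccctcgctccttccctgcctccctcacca
The SLIT1 window held CTTTGAA once, beginning 214 bases before the start, and the other 4 windows shown held neither motif. Over the 8 of 10 genes with a window used here, 1 of 10 windows (10%) held a motif, against 2086 of 35116 windows of the same length over all genes (5.94%). UNC5B and UNC5D had no window in this count, and whether theirs hold a motif was not tested. The windows also differed in base composition, with 56% G and C for DCC, 81.2% for UNC5A and 68.4% for SLIT1, and for ROBO2 46.8% at the first start and 76% at the other. A match describes letters in the window and says nothing on binding.

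DCC RNA was below 1 CPM in both hPSC libraries, was highest at day 11 with the lowest CHIR dose and was lower at each higher dose up to 5 µM. Its level was 0.929 and 0.319 CPM in the hPSC libraries of replicates 1 and 2, then 37.7 and 97.0 CPM with 0.7 µM, 12.8 and 15.1 CPM with 3 µM, 1.69 and 2.77 CPM with 5 µM, and 0.624 and 3.74 CPM with 7.5 µM. Both 0.7 µM libraries were above both 3 µM libraries, these were above all 5 and 7.5 µM libraries, and the 5 and 7.5 µM groups overlapped. The log2 fold change from edgeR was −2.08 (SE 0.825) at 3 µM, −4.86 (SE 0.937) at 5 µM and −5.13 (SE 0.948) at 7.5 µM, each against 0.7 µM. Between 7.5 and 5 µM it was −0.28 (SE 0.816), and it changed sign, between −2.06 and 0.47, when single libraries were left out. The value at 7.5 against 0.7 µM was −4.32 to −6.95 over the same exercise. Per doubling of the dose the estimate was −1.55 (SE 0.255).

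In the 4 day 11 groups the second replicate had 1.19 to 6.0 times the DCC CPM of the first. Relative to hPSC, DCC was 6.89 log2 units higher with 0.7 µM and 1.75 log2 units higher with 7.5 µM. Without the second 7.5 µM library the difference at 7.5 µM was 0.019 log2 units. In bulk cultures fewer cells with DCC and less DCC RNA per cell cannot be told apart. The summed CPM of 10 neuron markers was 272 and 513 with 0.7 µM, 161 and 411 with 3 µM, 186 and 488 with 5 µM, and 434 and 666 with 7.5 µM. The neuron sum was thus higher at 7.5 µM than at 0.7 µM in both replicates, while DCC was lower in both. The neuron markers did not move as one. With the replicate block, edgeR called DCX lower at 7.5 against 0.7 µM (log2 fold change −1.36, adjusted p = 0.00858). In the same fit INA (1.501, adjusted p = 0.00655) and GAP43 (1.53, adjusted p = 0.0304) were called higher. The other neuron markers were not called, and without the block edgeR called none. The 8 dopamine neuron markers summed to 46.3 and 31.0 CPM with 0.7 µM, 64.5 and 34.7 with 3 µM, 115 and 54.9 with 5 µM, and 172 and 151 with 7.5 µM. This sum too was higher at 7.5 than at 0.7 µM in both replicates, and EN1, a transcription factor also made by midbrain progenitors, supplied 126 and 99.2 CPM of it at 7.5 µM, while TH stayed below 1 CPM in all day 11 libraries. The 9 neural progenitor markers summed to 8009 and 6509 CPM with 0.7 µM, 8752 and 6525 with 3 µM, 10108 and 7738 with 5 µM, and 7109 and 6727 with 7.5 µM. Of these 9, 3 were called lower at 7.5 against 0.7 µM in the edgeR fit with the replicate block and none higher: PAX6 (log2 fold change −5.03, adjusted p = 0.00409), FABP7 (−2.24, adjusted p = 0.0101) and MSI1 (−0.94, adjusted p = 0.0368). Without the block edgeR called none of the 9, and 2 had an unadjusted p under 0.05, where 1641 of 18709 genes had. Of the other cell type lists, the 9 markers of ventral forebrain and diencephalon summed to 14.7 and 10.3 CPM with 0.7 µM, 1.31 and 1.90 with 3 µM, 0.674 and 0.876 with 5 µM, and 0.653 and 0.592 with 7.5 µM. The defining marker NKX2-1 averaged 11.1 CPM with 0.7 µM and 0.0623 CPM with 7.5 µM. It supplied most of the sum at 0.7 µM, where the other 8 markers were below 1 CPM in both libraries. The part of any of these cells in the DCC values was not tested.

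**Figure D1:**
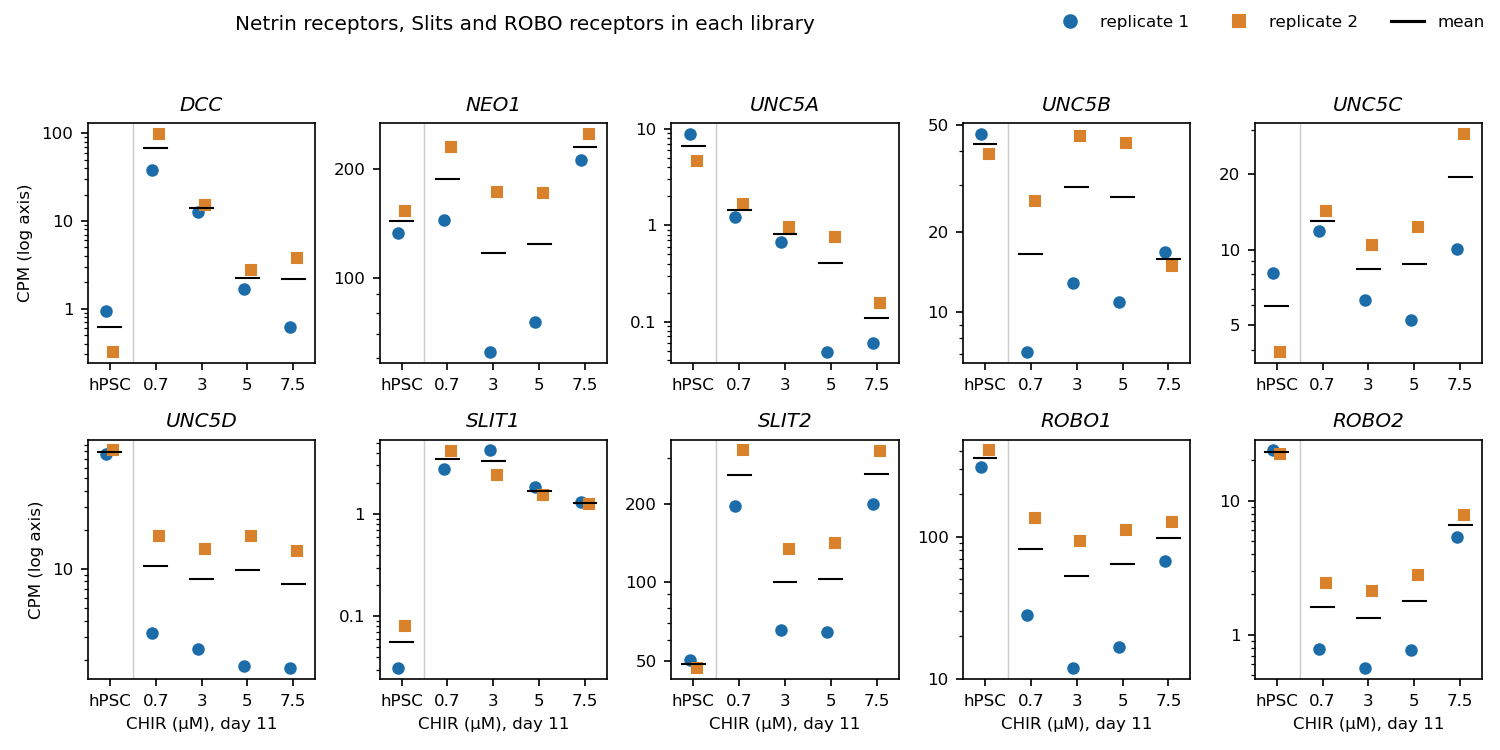
CPM (log axis) of the 10 genes in each of the 10 hPSC and day 11 libraries, 1 panel a gene, with hPSC at the left and CHIR dose (µM) increasing to the right; marks are single libraries of replicate 1 and replicate 2 and bars their mean. DCC is at 37.7 and 97.0 CPM at 0.7 µM and at 1.69 and 2.77 CPM at 5 µM, UNC5A is highest in hPSC, and SLIT2 is lowest of the day 11 groups at 3 and 5 µM.

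Between the highest and the lowest dose, 3 of the other 9 genes passed the test once the replicate number was a block: UNC5A and SLIT1 fell and ROBO2 rose. In that fit 10.5% of the 18709 genes tested passed at an adjusted p under 0.05 (Benjamini-Hochberg), with 5.64% higher and 4.87% lower at 7.5 µM. Without the block edgeR called 0 of the 9 genes and 0% of all genes, with 2 of the 9 and 1641 genes in all at an unadjusted p under 0.05, and DESeq2 called UNC5A alone of the 9. The median log2 fold change of the 9 was 0.16 in the blocked fit, beside 0.07 over all genes tested, and −0.17 without the block, beside −0.03. All 9 had passed the filter on low counts.

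**Figure D2:**
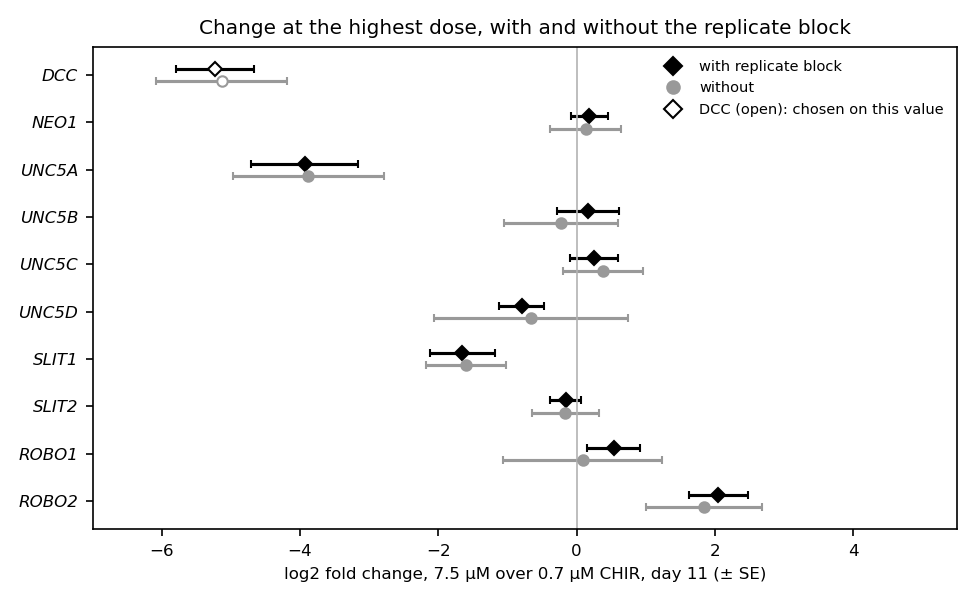
Log2 fold change at 7.5 against 0.7 µM CHIR (horizontal axis) for each of the 10 genes, with the edgeR estimate and its standard error from the fits with and without the replicate block. UNC5A (−3.93) and SLIT1 (−1.65) lie left of 0 and ROBO2 (2.05) right of it in the blocked fit, while NEO1, UNC5B, UNC5C and SLIT2 lie close to 0; DCC is drawn as a description.

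UNC5A, a repulsive netrin receptor, had 0.0594 and 0.156 CPM in the 7.5 µM libraries, against 1.22 and 1.68 CPM in the 0.7 µM libraries. Every 7.5 µM library was below every 0.7 µM library. In between it had 0.675 and 0.951 CPM with 3 µM and 0.0481 and 0.759 CPM with 5 µM. The highest-dose value rests on 7 counts over both libraries, against 100 at the lowest dose, a CPM ratio of 0.0695 with an exact 95% counting interval of 0.0272 to 0.149 that covers counting error only. The log2 fold change was −3.93 (SE 0.772, edgeR adjusted p = 0.0122 with the block and 0.348 without it, where the estimate was −3.88). Leaving out the first 0.7 µM library gave −3.62 with an adjusted p of 0.0622, and leaving out any 1 of the other 3 libraries gave adjusted p-values of 0.0163 to 0.0477. UNC5A shares 30 exon bases with HK3 on the other strand, which had at most 5 counts in any library.

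NEO1 was the most abundant netrin receptor and showed no change that passed the test. It had 212 and 250 CPM with 7.5 µM, against 145 and 231 CPM with 0.7 µM, and the 2 groups overlapped. Its log2 fold change was 0.19 (SE 0.270, edgeR adjusted p = 0.690, with the block). In the 3 and 5 µM libraries of replicate 1 it had 62.3 and 75.6 CPM, against 172 CPM in each of those of replicate 2.

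UNC5B, UNC5C and UNC5D, the other repulsive receptors, did not pass either. UNC5B had 16.8 and 14.9 CPM with 7.5 µM, against 7.11 and 26.0 CPM with 0.7 µM (log2 fold change 0.16, SE 0.447, edgeR adjusted p = 0.850, with the block). UNC5C had 10.0 and 28.8 CPM with 7.5 µM, against 11.9 and 14.2 CPM with 0.7 µM (0.25, SE 0.344, adjusted p = 0.676 from the same edgeR fit). UNC5D had 1.72 and 13.6 CPM with 7.5 µM, against 3.22 and 18.0 CPM with 0.7 µM (−0.79, SE 0.325, adjusted p = 0.138 from the same edgeR fit). The groups overlapped for all 3 genes. For UNC5B the sign differed between the fits, with −0.22 without the block, and UNC5B was called when either 7.5 µM library was left out, with opposite signs (log2 fold change −0.96, adjusted p = 0.0380, without the first and 0.92, adjusted p = 0.0212, without the second, by edgeR with the block).

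SLIT1, a secreted ROBO ligand, was the scarcer of the 2 Slits. It had 1.31 and 1.25 CPM with 7.5 µM, against 2.78 and 4.13 CPM with 0.7 µM, so the groups did not overlap, and 4.20 and 2.39 CPM with 3 µM and 1.83 and 1.55 CPM with 5 µM. The log2 fold change was −1.65 (SE 0.466, edgeR adjusted p = 0.0494 with the block and 0.486 without). Leaving out the second 0.7 µM library gave −0.97 (adjusted p = 0.293), leaving out the first 7.5 µM library an adjusted p of 0.0988, and scaling by library totals alone an adjusted p of 0.0652. The row is uncertain, because the readthrough gene ARHGAP19-SLIT1 shares 216 of the 9103 exon bases of SLIT1. The readthrough row held 23 and 19 counts with 7.5 µM, against 81 and 291 counts with 0.7 µM, where SLIT1 itself held 44 and 40 against 57 and 185. The summed row gave −2.40 (SE 0.445, edgeR adjusted p = 0.00963 with the block and 0.298 without).

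SLIT2, the abundant Slit, had similar levels at both ends of the dose range and lower ones between them. It had 197 and 321 CPM with 0.7 µM, 65.8 and 134 CPM with 3 µM, 64.7 and 142 CPM with 5 µM, and 201 and 320 CPM with 7.5 µM. Within each replicate both middle doses were below both outer doses, and no library of the 3 or 5 µM groups reached a library of the outer groups. At 7.5 against 0.7 µM the log2 fold change was −0.16 (SE 0.227, edgeR adjusted p = 0.683, with the block), an estimate that became 0.012 with scaling by library totals alone.

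At 5 against 0.7 µM SLIT2 fell by 1.32 log2 units (SE 0.231, edgeR adjusted p = 0.0274 with the block), and was the only 1 of the 9 genes called there, where 1.13% of all genes were. At 3 against 0.7 µM the estimate was −1.23 (SE 0.231) with an edgeR adjusted p of 0.181, and none of the 9 genes was called, where 0.0214% of all genes were. In that fit 3 of the 9 had an unadjusted p under 0.05, where 1400 of 18709 genes had. DESeq2 with the block called SLIT2. At 7.5 against 5 µM SLIT2 rose by 1.16 log2 units (SE 0.230, edgeR adjusted p = 0.0255 with the block), and 2 of the 9 genes were called, where 6.53% of all genes were. Without the block edgeR called none of the 9 at any of these 3 comparisons, and 0% of all genes. An unadjusted p under 0.05 then held for 1 of the 9 at 5 and at 3 against 0.7 µM and for none at 7.5 against 5 µM. Over all 18709 genes tested, it held for 567, 276 and 1168 genes in these 3 comparisons. DESeq2 without the block called none of the 9. The call at 5 against 0.7 µM was lost when any 1 of its 4 libraries was left out, with estimates of −1.40 to −1.24 and adjusted p-values of 0.0887 to 0.537. That at 7.5 against 5 µM was lost without either 5 µM library, with adjusted p-values of 0.299 without the first and 0.209 without the second.

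ROBO1, a Slit receptor, had 67.8 and 127 CPM with 7.5 µM, against 27.9 and 136 CPM with 0.7 µM. The groups overlapped, and the log2 fold change of 0.53 (SE 0.381, edgeR adjusted p = 0.386, with the block) did not pass, although it was 1.15 (adjusted p = 0.00409) without the second 7.5 µM library. ROBO2, its closest relative, had 5.32 and 7.82 CPM with 7.5 µM, against 0.780 and 2.44 CPM with 0.7 µM, and 0.563 and 2.11 CPM with 3 µM and 0.770 and 2.80 CPM with 5 µM. Both 7.5 µM libraries were above all 6 libraries of the lower doses, whose groups overlapped one another.

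ROBO2 rose by 2.05 log2 units at 7.5 against 0.7 µM (SE 0.425, edgeR adjusted p = 0.0153 with the block and 0.622 without). It rose by 1.89 log2 units at 7.5 against 5 µM (SE 0.425, edgeR adjusted p = 0.0359 with the block). The first call was lost without either 0.7 µM library, with adjusted p-values of 0.0996 without the first and 0.0659 without the second. The other was lost without the first or the second 5 µM library or the first 7.5 µM library, with adjusted p-values of 0.289, 0.205 and 0.0797. As a straight line over log2 dose, none of the 9 genes was called in either edgeR fit, where 0.134% of all genes were without the block and 1.19% with it. In the fit without the block 1 of the 9 had an unadjusted p under 0.05, where 1106 of 18709 genes had. With the block 3 of the 9 had, where 2251 genes had, and DESeq2 with the block called UNC5A. The blocked slope per doubling was 0.49 for ROBO2 (adjusted p = 0.362), −0.89 for UNC5A (adjusted p = 0.188) and −0.43 for SLIT1 (adjusted p = 0.373) by edgeR.

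The replicate number separated several of these genes as widely as the dose did. Replicate 2 had more UNC5D than replicate 1 at all 4 doses, by 5.59 to 10.1 times, and more ROBO1, by 1.88 to 7.84 times. NEO1, UNC5A, UNC5C, SLIT2 and ROBO2 were also higher in replicate 2 at all 4 doses, UNC5B at 3 of them and SLIT1 at 1. Marker sums differed between the replicates in both directions. The 9 mesenchyme markers summed to 66.6 and 273 CPM with 0.7 µM, 62.7 and 330 with 3 µM, 85.5 and 571 with 5 µM, and 91.5 and 355 with 7.5 µM in replicates 1 and 2, and the neuron sum given above was higher in replicate 2 at each dose. The neural progenitor and dopamine neuron sums given above were lower in replicate 2 at each dose. The part of these cells in the replicate difference was not tested. Among the submitters' sample codes, the first part is shared by all day 11 libraries of 1 replicate number and differs between the numbers.

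**Figure D3:**
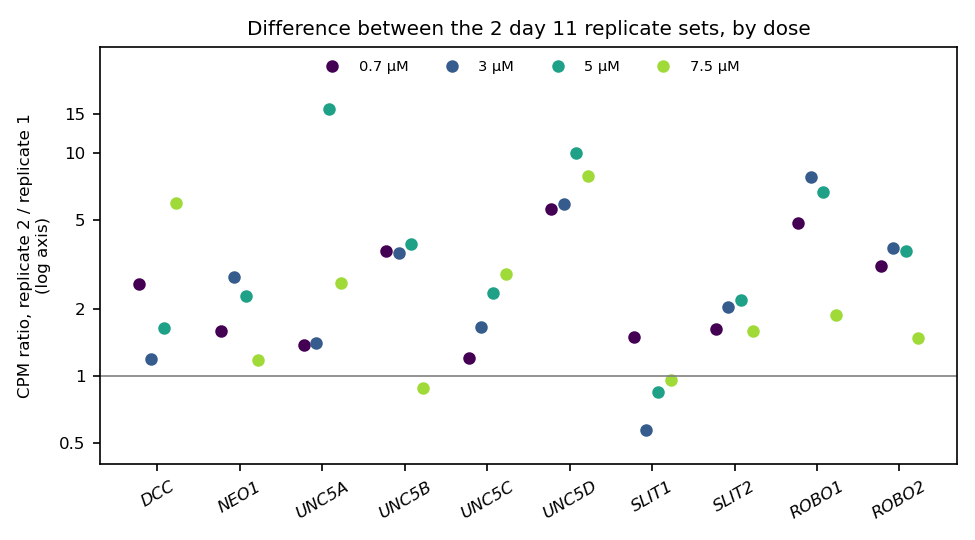
CPM of replicate 2 divided by CPM of replicate 1 (log axis) for each gene, 1 point for each of the 4 day 11 doses, with a line at equal values. UNC5D (5.59 to 10.1) and ROBO1 (1.88 to 7.84) lie above the line at every dose, whereas SLIT1 lies above it at 1 dose.

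Set against undifferentiated cells, both Slits were higher at 0.7 and at 7.5 µM, and UNC5A, UNC5B, UNC5D, ROBO1 and ROBO2 were lower in the fits with the block. The 3 and 5 µM groups were not tested against hPSC. UNC5B had 12.9 and 45.8 CPM with 3 µM and 10.9 and 42.9 CPM with 5 µM, which overlapped its 46.2 and 39.1 CPM in hPSC libraries. UNC5D had 1.72 to 18.0 CPM over the 8 day 11 libraries, against 76.0 and 81.4 CPM in hPSC libraries. ROBO1 had 11.9 to 136 CPM over the day 11 libraries, against 310 and 403 CPM in hPSC libraries. The day 11 libraries lay below both hPSC libraries for both genes.

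At 0.7 µM against hPSC, 3 of the 9 genes were called without the block, where 11.4% of 19672 genes were, and 8 of 9 with it, where 46.1% were. SLIT2 rose to 197 and 321 CPM with 0.7 µM, against 50.3 and 46.9 CPM in hPSC libraries (log2 fold change 2.58, SE 0.462, edgeR adjusted p = 0.0136). SLIT1 had 242 counts over the 0.7 µM libraries, against 3 over the hPSC libraries, a CPM ratio of 70.9 with a 95% counting interval of 24.0 to 346. ROBO2 fell to 0.780 and 2.44 CPM with 0.7 µM, against 23.7 and 22.2 CPM in hPSC libraries (−3.65, SE 0.796, edgeR adjusted p = 0.0264).

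With the block UNC5A (−2.08), UNC5B (−1.43), UNC5D (−3.21) and ROBO1 (−2.36 log2 units) were called lower as well and UNC5C higher (1.30), and NEO1 was not called (0.51, adjusted p = 0.111, edgeR). The replicate numbers do not pair the hPSC libraries with the day 11 libraries, so in that fit the hPSC libraries were in no block. The block takes the difference between the day 11 replicates out of the spread, and the hPSC libraries do not share that difference. P-values with the block against hPSC thus leave it out and can be too small. The calls without the block depended on single libraries, and 0 of the 9 were called without either hPSC library. Without the first hPSC library SLIT2 had an adjusted p of 0.120 and ROBO2 of 0.123, without the second 0.149 and 0.143, and without the first 0.7 µM library ROBO2 had 0.102. With the block 6 or 7 of the 9 were called in these fits, and UNC5D, SLIT1, SLIT2, ROBO1 and ROBO2 in each.

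At 7.5 µM against hPSC, 3 of the 9 were called without the block, where 10.1% of all genes were, and 9 of 9 with it, where 34.8% were. UNC5A fell to 0.0594 and 0.156 CPM with 7.5 µM, against 8.76 and 4.63 CPM in hPSC libraries (log2 fold change −5.92, SE 1.04, edgeR adjusted p = 0.0132). SLIT2 rose by 2.41 log2 units (SE 0.459, edgeR adjusted p = 0.0172), and SLIT1 had 84 counts against 3, a CPM ratio of 24.4 with a 95% counting interval of 8.08 to 121. With the block UNC5B (−1.28), UNC5D (−4.00), ROBO1 (−1.83) and ROBO2 (−1.80 log2 units) fell and UNC5C (1.55) and NEO1 (0.70, edgeR adjusted p = 0.0474) rose. ROBO2 thus had its lowest levels at 0.7, 3 and 5 µM, and its 7.5 µM libraries lay between these and the hPSC libraries. Leaving out any 1 of the 4 libraries left 0 of the 9 called without the block, with adjusted p-values of 0.0656 to 0.122 for UNC5A and 0.0615 to 0.178 for SLIT2, and 6 to 8 of the 9 with it, UNC5A, UNC5D, SLIT1, SLIT2, ROBO1 and ROBO2 in each. The 2 comparisons with hPSC share the hPSC libraries, and the limit given above on p-values with the block holds for both.

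Divided by exon length, which allows levels to be compared between genes, ROBO1 led in hPSC libraries with 32.8 CPM per kb, followed by NEO1 (17.7), UNC5D (7.28), UNC5B (6.24) and SLIT2 (5.00). Next came UNC5A (1.54) and ROBO2 (1.38), whose libraries overlapped, then UNC5C (0.560), DCC (0.0474) and SLIT1 (0.00608). At day 11 the order was led by SLIT2 and NEO1 at both ends of the dose range, with 26.8 and 28.4 CPM per kb at 7.5 µM and 26.7 and 23.1 CPM per kb at 0.7 µM, and the libraries of the 2 genes overlapped in both groups. DCC took the fourth place of the 10 at 0.7 µM with 5.12 CPM per kb, where its libraries overlapped with those of ROBO1 above it (7.52) and UNC5B below it (2.42). At 7.5 µM DCC had 0.166 CPM per kb and UNC5A, the lowest, 0.0247. The most abundant netrin receptor by length was NEO1 in every hPSC and day 11 group.

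**Figure D4:**
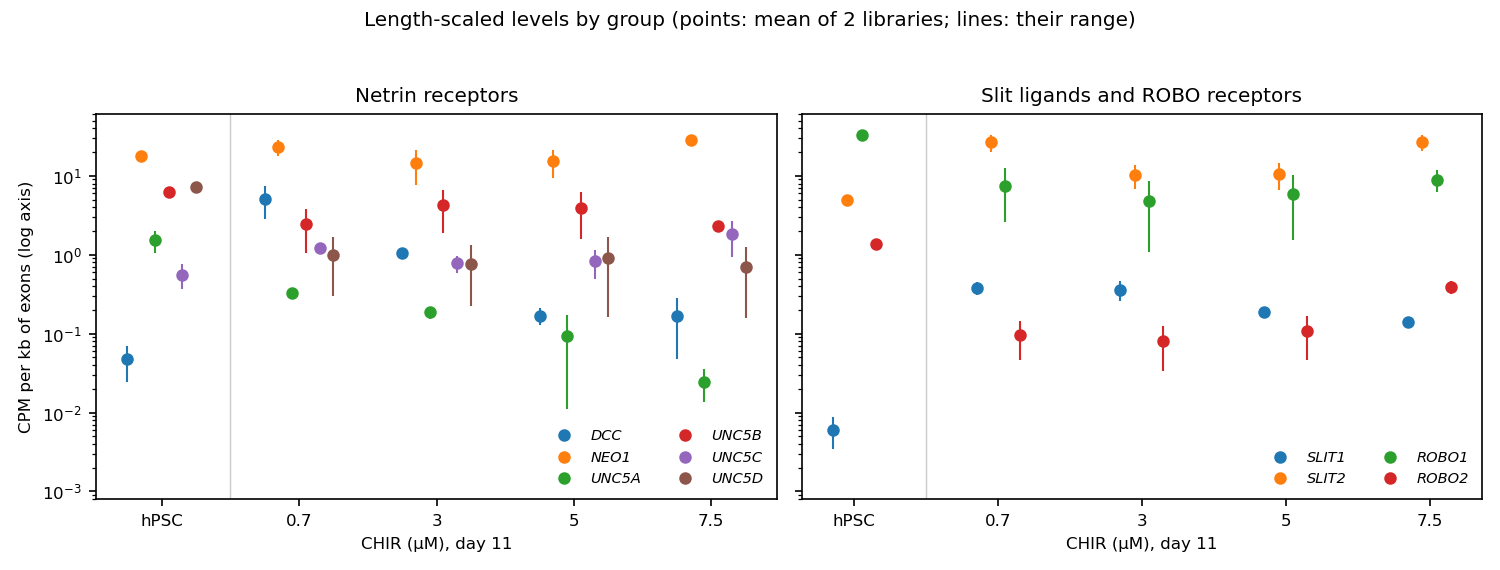
Levels per kb of exon (CPM per kb, log axis) of the netrin receptors (left panel) and of the Slits and ROBO receptors (right panel) in hPSC and at day 11 by CHIR dose; points are means of 2 libraries and lines their range. NEO1 and SLIT2 are highest at 7.5 µM (28.4 and 26.8 CPM per kb), and DCC lies at 5.12 CPM per kb at 0.7 µM and 0.166 CPM per kb at 7.5 µM.

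Of 17 further netrin ligands and partners, 13 were tested at 7.5 against 0.7 µM, and with the block 2 fell and 0 rose (median log2 fold change −0.32, beside 0.07 over all genes). NTN1, the ligand of DCC and the UNC5 receptors, had 302 and 79.3 CPM with 0.7 µM, 36.8 and 39.9 CPM with 3 µM, 25.7 and 35.8 CPM with 5 µM, and 82.0 and 45.7 CPM with 7.5 µM. The highest NTN1 value was that of the first 0.7 µM library, and the outer doses overlapped in part. At 7.5 against 0.7 µM NTN1 fell by 1.63 log2 units (SE 0.425, edgeR adjusted p = 0.0369 with the block and 0.535 without). FLRT1, of a family of transmembrane proteins that includes binding partners of UNC5 receptors, had 0.921 and 0.779 CPM with 7.5 µM, against 10.8 and 6.46 CPM with 0.7 µM. Both 7.5 µM libraries were below both 0.7 µM libraries (−3.47, SE 0.492, edgeR adjusted p = 0.00302 with the block and 0.236 without).

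NTN1 and SLIT2 are both products of the floor plate, and its other markers are given beside them. Without NTN1, 8 floor plate markers, FOXA2 and SHH among them, summed to 1168 and 892 CPM with 0.7 µM, 382 and 382 CPM with 3 µM, 314 and 314 CPM with 5 µM, and 525 and 604 CPM with 7.5 µM. This sum was highest at 0.7 µM and lowest at 5 µM in both replicates, as NTN1 was, while SLIT2 at 7.5 µM was back at its 0.7 µM level. With NTN1 counted, 4 of 9 floor plate markers were called lower at 7.5 against 0.7 µM with the block and none higher, where 4.87% of all genes were called lower. These were SHH (log2 fold change −2.36), CORIN (−3.35), SPON1 (−1.28) and NTN1 (−1.63). The markers did not move as one. FOXA2 (−0.59), FOXA1 (−0.45) and FERD3L (−1.06) were not called, nor were LMX1A (0.75) and LMX1B (1.26), whose estimates were positive. Without the block 0 were called and 4 had an unadjusted p under 0.05, where 1641 of 18709 genes had. The part of floor plate cells in the SLIT2 and NTN1 values was not tested.

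**Figure D5:**
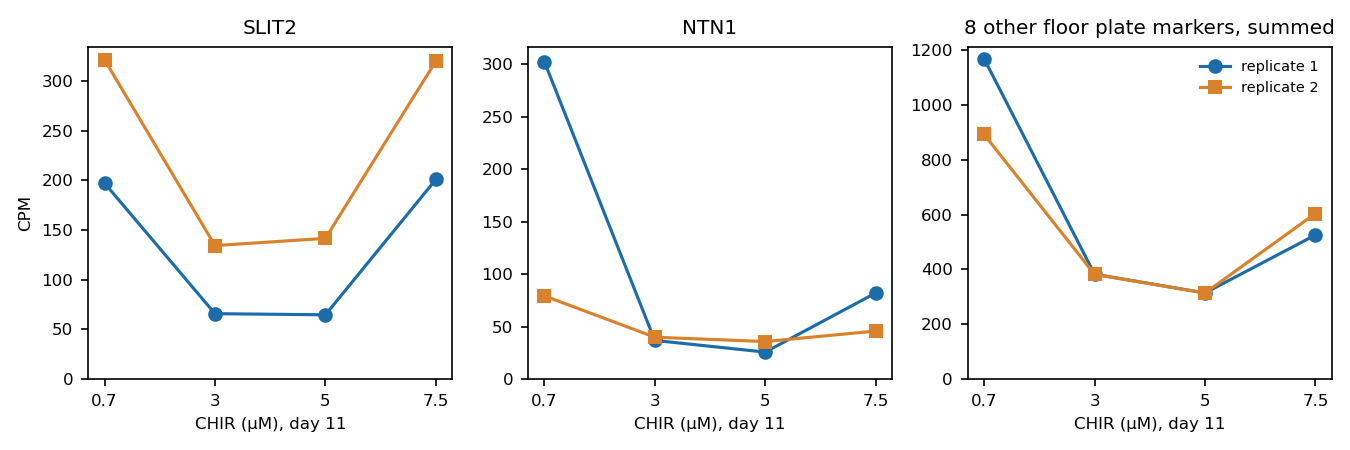
CPM of SLIT2, of NTN1 and the summed CPM of 8 other floor plate markers (vertical axes, each from 0) by CHIR dose at day 11, with replicate 1 and replicate 2 as separate lines. All 3 are lower at 3 and 5 µM than at 0.7 µM; at 7.5 µM SLIT2 is at 201 and 320 CPM, and the marker sum is at 525 and 604 CPM, below its 0.7 µM values of 1168 and 892 CPM.

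Of 15 Slit and ROBO partners 14 were tested, and with the block 2 rose and 0 fell (median 0.14). NELL2, a secreted ligand of ROBO3, had 775 and 796 CPM with 7.5 µM, against 101 and 233 CPM with 0.7 µM, and 221 and 418 CPM with 3 µM and 411 and 557 CPM with 5 µM. Both replicates were higher at each higher dose, and the 7.5 µM libraries were above all others (log2 fold change 2.15, SE 0.327, edgeR adjusted p = 0.00411 with the block and 0.290 without). MMP2, a secreted matrix metalloprotease, had 976 and 731 CPM with 7.5 µM, against 476 and 327 CPM with 0.7 µM (0.93, SE 0.253, edgeR adjusted p = 0.0430 with the block and 0.721 without). Both 7.5 µM libraries were above both 0.7 µM libraries.

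The remaining family members were not called. SLIT3, the third Slit, had 27.9 and 33.9 CPM with 7.5 µM, against 12.6 and 7.80 CPM with 0.7 µM, without overlap (1.39, SE 0.394, edgeR adjusted p = 0.0506 with the block). ROBO3, a divergent ROBO receptor, had 15.3 and 15.4 CPM with 7.5 µM, against 23.3 and 16.1 CPM with 0.7 µM (−0.50, SE 0.271, edgeR adjusted p = 0.253 with the block). ROBO4, an endothelial receptor, had 3 counts over all 10 hPSC and day 11 libraries.

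Among the signalling genes downstream, 18 of 21 on the netrin side were tested, and with the block 1 rose and 0 fell (median 0.07). That gene was ABLIM1, an actin-binding protein, with 88.1 and 157 CPM at 7.5 µM, against 30.7 and 96.0 CPM at 0.7 µM (0.93, SE 0.262, edgeR adjusted p = 0.0484 with the block and 0.868 without). The ABLIM1 libraries of the 2 doses overlapped, and replicate 2 was the higher one at both. On the Slit side all 15 genes were tested, and with the block 2 rose and 1 fell (median 0.08).

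SRGAP2, a Slit-ROBO GTPase-activating protein, had 108 and 113 CPM at 7.5 µM, against 47.9 and 49.1 CPM at 0.7 µM, without overlap (1.02, SE 0.230, edgeR adjusted p = 0.0206 with the block and 0.418 without). SRGAP3, of the same family, had 72.5 and 80.7 CPM at 7.5 µM, against 121 and 171 CPM at 0.7 µM, also without overlap (−1.09, SE 0.235, edgeR adjusted p = 0.0177 with the block and 0.422 without). The pair thus moved in opposite directions. SOS1, a Ras and Rac exchange factor, had 71.2 and 149 CPM at 7.5 µM, against 24.3 and 65.6 CPM at 0.7 µM (1.22, SE 0.280, edgeR adjusted p = 0.0230 with the block and 0.842 without), again without overlap.

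The medians of the last 3 lists turned sign without the block (−0.02, −0.12 and −0.02 for netrin signalling, Slit and ROBO partners and Slit signalling). Without the block none of the tested genes of these 4 lists was called by edgeR, and 2, 0, 2 and 2 of them had an unadjusted p under 0.05 among the netrin partners, netrin signalling, Slit and ROBO partners and Slit signalling genes. For comparison, 4 of 31 semaphorin and plexin genes rose and 6 fell with the block (median −0.39), and 0 of 20 ephrin and Eph genes rose and 4 fell (median −0.38). Without the block none of the tested semaphorin, plexin, ephrin and Eph genes was called by edgeR, and 3 semaphorin and plexin genes and 1 ephrin or Eph gene had an unadjusted p under 0.05. Over all 18709 genes tested, 1641 had one in that fit.

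Over the 10 hPSC and day 11 libraries, the 5 genes whose levels followed DCC most closely among 13286 genes were ATP6V1G2 (Pearson r 0.968), RP1-193H18.2 (0.960), PRSS23 (0.959), C8orf4 (0.948) and NEK6 (0.946), on the scale of log2(CPM + 0.5). These are descriptions over libraries that share groups, replicate numbers and depth. PRSS23, which codes for a serine protease, had a mean of 10.8 CPM in hPSC libraries, then 199.7 CPM with 0.7 µM, 84.0 CPM with 3 µM, 40.3 CPM with 5 µM and 22.9 CPM with 7.5 µM. C8orf4 had means of 0.303 CPM in hPSC libraries, then 16.8, 6.57, 3.36 and 1.30 CPM at the 4 doses in rising order. Both were highest at 0.7 µM and lower at each higher dose, as DCC was to 5 µM. The other 3 had the same order of group means over a narrower range, as NEK6 with 22.2 CPM in hPSC libraries, then 42.8, 31.4, 28.4 and 25.3 CPM.

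The day 30 and day 16 tables, with 5406488 to 6336374 counts a library, differ in what they hold. Genes annotated as antisense took 32.7% to 39.8% of their counts, against 0.259% to 0.356% in the hPSC and day 11 tables, and GAPDH was at 71.9 to 293 CPM, against 2306 to 9970 CPM. Of 1983 genes with at least 50 CPM in all 10 earlier libraries, 41 were listed at 0 in all 4 later ones. Whether the rows there of the netrin, Slit and marker genes count their own RNA or reads of the other strand was not tested. No comparison with day 11 was therefore made.

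Within the later tables, DCC had 16.8 and 24.7 CPM at day 30, against 27.3 and 6.84 CPM at day 16. The groups overlapped (log2 fold change 0.55, SE 0.640, edgeR adjusted p = 0.661), and without the first day 16 library the estimate was 1.49 (adjusted p = 0.0108). SLIT2 had 16.1 and 16.5 CPM at day 30, against 217 and 53.1 CPM at day 16, and was the only 1 of 8 tested genes called, where 11.0% of 15435 genes were, or 6.91% with the block (−2.76, SE 0.568, edgeR adjusted p = 0.00111). Without either day 30 library SLIT2 was no longer called (adjusted p = 0.741 and 0.103), and without either day 16 library 3 genes were called. The first day 16 library had more neuron and mesenchyme marker counts than the second, with sums of 1175 against 187 CPM and 159 against 31.3 CPM, and the part of this in the values was not tested. Floor plate markers other than NTN1 summed to 125 and 134 CPM at day 30, against 450 and 270 CPM at day 16, and 2 of the 8 tested markers, NTN1 included, were called lower, SHH (log2 fold change −3.03, edgeR adjusted p = 0.0126) and SPON1 (−2.10, edgeR adjusted p = 0.00876). With the block SPON1 alone was (adjusted p = 0.0307, and 0.0511 for SHH). The neural progenitor sum was 80.7 and 95.9 CPM at day 30, against 471 and 198 CPM at day 16, and the part of these cells in the SLIT2 values was not tested. SOX2 and HES5, both in that sum, were listed at 0 in all 4 libraries. The open question of strand given above holds for all marker values here. SLIT1 was listed at 0 in all 4 libraries.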

How the data were processed

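The authors deposited raw counts of reads for each gene, 1 table a library. STAR 2.4.2a, featureCounts 1.4.2, HTSeq 0.5.3, DESeq2 1.12.4 and hg19 are named in the submitters' processing notes, without a role for each; for the library kit, the strand setting and the counting options, nothing is stated in the sources used here. The 5 rows of each table that name no gene were left out of library sizes (37.4% to 44.3% of counts).

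CPM were computed from gene rows. Fold changes and p-values came from edgeR 4.0.16 (R 4.3.3) with TMM scaling, filterByExpr and robust quasi-likelihood tests on all genes. All day 11 libraries, all day 11 and hPSC libraries or the day 30 and day 16 libraries were in 1 fit. P-values were adjusted by Benjamini-Hochberg over all genes tested. The code was run on simulated counts with a set spread, and with a replicate effect only where the block was fitted. That run checks the code and not the power in these data. For day 11, deviations from group means correlated between same-numbered libraries by 0.62 to 0.83 in all 6 pairs of groups, so a fit with the replicate number as a block was added. The correlations were −0.16 to −0.10 with hPSC and −0.22 between day 30 and day 16. DESeq2 1.42.0, other scalings, no filter on low counts and each library left out were tried. Exon lengths, overlaps and gene types came from GENCODE 29 by gene ID. Promoters came from RefSeq. Intervals on counts cover counting error only.

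The genes and lists were chosen with earlier results of these data known. A floor plate marker of the chosen list is not reported here and is in no sum or count. Named from the lists were genes called at 7.5 against 0.7 µM with or without the block, and NTN1, SLIT3, ROBO3 and ROBO4. The 5 genes most like DCC were those with the highest Pearson correlation, among genes with at least 5 CPM in their highest group.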

Additional observations from a re-analysis of the deposited data

How the results depend on the processing

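With 2 libraries a group, edgeR called none of the 9 tested genes between day 11 doses without the replicate block, and the pairing that the block assumes comes from the data. Against the counts of called genes without the block (0 of 9 at 7.5 against 0.7 µM), the block gave 3, also with DESeq2, without the filter on low counts, with DESeq2 size factors and with SLIT1 summed with its readthrough row, and 2 with library totals alone, while DESeq2 without the block gave 1. At 5 against 0.7 µM (0 without the block) every blocked setting gave 1. At 3 against 0.7 µM (0) the block gave 1 with DESeq2 or without the filter. At 7.5 against 5 µM (0) the block gave 2, or 3 without the filter. For the slope (0) the block with DESeq2 gave 1. At 0.7 µM against hPSC (3) every blocked setting gave 8. At 7.5 µM against hPSC (3) the count was 5 with DESeq2, 7 with only the 2 groups in the fit, and with the block 9, or 8 with DESeq2 size factors and 7 with library totals alone. At day 30 against day 16 (1) no other setting, the crossed replicate block included, changed the count. Over all genes the blocked fit called 1967 at 7.5 against 0.7 µM, 2015 with DESeq2 size factors and 1805 with library totals alone. At 7.5 µM against hPSC these were 6838, 6866 and 6246. Shares over all genes are not given for the remaining fits, those with 1 library left out included. Their counts therefore do not set the tested genes apart.

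Leaving out 1 library gave 0 to 0 calls without the block and 1 to 5 with it at 7.5 against 0.7 µM, 0 to 4 with it at 7.5 against 5 µM, 0 to 3 and 6 to 7 at 0.7 µM against hPSC, 0 to 0 and 6 to 8 at 7.5 µM against hPSC, and 0 to 3 at day 30 against day 16. In the other comparisons it gave 0 in each fit. The log2 fold change at 7.5 against 0.7 µM changed sign in these fits for NEO1 (−0.16 to 0.49, and −0.24 to 0.45 with the block), UNC5B (−0.87 to 0.97, and −0.96 to 0.92, with 0.60 without the second 0.7 µM library), UNC5C (−0.59 to 0.89, and −0.33 to 0.65, with −0.094 without the second 0.7 µM library), ROBO1 (−0.64 to 1.61, and −0.41 to 1.15), and without the block for UNC5D (−2.83 to 1.04) and SLIT2 (−0.58 to 0.21). DCC at 7.5 against 5 µM spanned −2.06 to 0.47, and −1.72 to 0.21 with the block. The UNC5B sign also turned under the block, to 0.16 (0.11 with DESeq2, 0.19 without the filter, 0.10 with DESeq2 size factors, 0.38 with library totals alone), and that of SLIT2 with library totals alone, to 0.0067, and 0.012 with the block. The cause was not tested. Library totals alone moved the median of all genes by 0.17 log2 units at 7.5 against 0.7 µM, by 0.23 at 7.5 against 5 µM and by −0.17 at 3 against 0.7 µM.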
